A study of Danio rerio with 12 samples.

Results

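Endothelial end cells of injured brain vessels at the time a macrophage arrives were compared with endothelial end cells of uninjured vessels in zebrafish larvae. The comparison holds 4 of the 12 libraries of the series, chosen by their labelled cell type and lesion stage: 2 at macrophage arrival and 2 uninjured controls. All 4 came from brain of strain ABGO, with red photoconverted Dendra2 as the labelled fluorophore. The protocol, given in the same words for every library of the series, names 2 lines, Tg(flk1:DenNTR; coro1a:eGFP) and Tg(coro1a:Kaeda; flk1:eGFP), and does not say which library came from which. The Dendra2 label of these 4 libraries points to the line with flk1:DenNTR, in which the flk1 promoter drives the convertible protein in vessels and the coro1a promoter drives eGFP in leukocytes, and this reading holds for both groups. Per the protocol, controls also received the converting laser pulse of 405 nm for 30 seconds, and the labels of the groups differ by lesion stage alone. The larval age and the means of wounding are not given in the sources used here. About 80 cells from about 20 animals were converted, heads were dissociated in trypsin, sorted by flow cytometry and turned into cDNA with Smart-seq2, a full-length protocol for very small inputs. Each library is thus a pool of animals. The labels do not say that the 2 libraries of a group came from separate animals or days, so any p-value measures only a spread between libraries. The models below take that spread from all 12 libraries of the series, not from these 4 alone.

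Brain endothelial cells line vessels with tight junctions and transporters that form the blood-brain barrier, which Wnt signals through Frizzled receptors and the co-receptor Adgra2 help to induce. Sprouting and regrowth of vessels depend on VEGF, Notch, BMP and semaphorin signals. In wounded tissue many cells switch on immediate early transcription factors of the FOS, JUN and EGR families and heat shock chaperones within minutes to hours, and exposed tissue factor starts coagulation.

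The authors' RPKM, which correct a gene's read number for its length and for the library's depth, gave the values below. Reads in genes were 26034263 and 39447004 in the arrival libraries, against 19066891 and 31177640 in the control libraries, and 8929 and 15879 genes against 16357 and 11457 genes had a read. Arrival 1 detected the fewest genes. A single unnamed gene, ENSDARG00000080337, had the highest RPKM of every one of these libraries and took 41.6% and 11.7% of arrival reads, against 24.2% and 15.096% of control reads. No intervals from read numbers are given, because PCR copies of the cDNA of about 80 cells are not independent molecules. Each SE below measures a spread within groups that the model pooled over all 12 libraries of the series and adjusted across genes. It is not the scatter of these 4 libraries alone.

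Endothelial marker genes were read in each of the libraries. Kdrl, the zebrafish VEGF receptor behind the flk1 promoter, had 97.3 and 15.4 RPKM in arrival libraries, against 42.7 and 77.8 RPKM in controls. Vascular endothelial cadherin (cdh5) had 189.6 and 31.00 RPKM at arrival, against 75.4 and 18.04 RPKM in controls, and the adhesion receptor pecam1a had 44.5 and 93.97 RPKM, against 180.2 and 70.7 RPKM. The groups overlapped for each of these genes. The summed RPKM of 36 matched endothelial marker genes was 2006 and 532 in arrival libraries, against 1866 and 1467 in controls, so that arrival 2 had the lowest sum. In macrophage libraries the same sum ran from 76.6 to 400, so arrival 2 lay nearest to that range.

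RNA of other cell types was also present and differed between the libraries. The photoreceptor and lens list of 94 matched genes summed to 418 and 40295 RPKM in arrival libraries, against 307 and 13.95 RPKM in controls, and 16 and 39 of its genes had a read at arrival, against 41 and 14 in controls. The cone opsin opn1lw2 alone had 0.318 and 20524 RPKM at arrival, against 0.0580 and 0.532 RPKM in controls, and cone transducin (GNAT2) had 0.0149 and 3037 RPKM, against 0.0203 and 0.0496 RPKM. Cone arrestin (ARR3) had 53.9 and 6360.5 RPKM at arrival, against 0 and 0.0930 RPKM in controls. Arrival 2 therefore held abundant cone photoreceptor RNA, while arrival 1 was near 0 for the opsin and the transducin but held ARR3. The macrophage list of 59 matched genes summed to 94.6 and 201 RPKM at arrival, against 109.996 and 3925 RPKM in controls. CORO1A, the actin regulator whose promoter marks leukocytes in both lines, had 0.0847 and 5.59 RPKM at arrival, against 0.434 and 704 RPKM in controls. The leukocyte actin bundler LCP1 had 0.157 and 0.169 RPKM, against 0.253 and 357 RPKM, and the myeloid factor SPI1 had 0.0811 and 0.0321 RPKM, against 0.0886 and 162 RPKM. NCF1, a phagocyte oxidase subunit that is also on the neutrophil list, had 0.0180 and 0.0238 RPKM at arrival, against 0 and 707 RPKM in controls, and at most 200.3 RPKM in any macrophage library. The neutrophil list of 15 matched genes summed to 213 and 199 RPKM at arrival, against 414 and 932 RPKM in controls. Control 2 therefore held leukocyte RNA, whereas the macrophage genes marco and csf1ra stayed under 0.1 RPKM in all 4 libraries. Red blood cell genes were high in 3 libraries, with a list sum of 117 and 20137 RPKM at arrival, against 71648 and 34346 RPKM in controls.

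**Figure D1:**
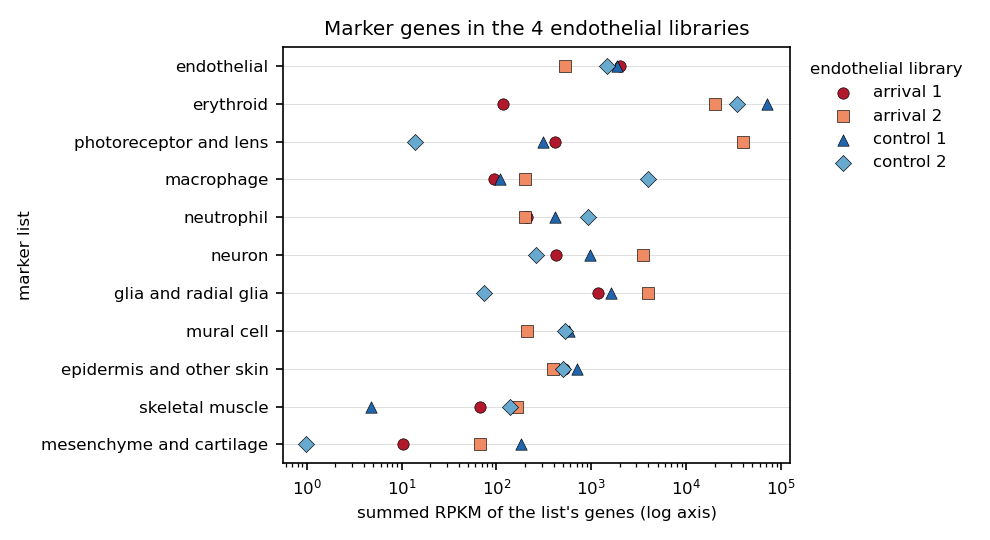
Summed RPKM (log axis) of endothelial markers and of 10 marker lists of other cell types, with 1 point for each of the 4 endothelial libraries and arrival libraries given before controls in the key. Arrival 2 stands apart for photoreceptor and lens genes, control 2 for genes of the macrophage list and arrival 1 for its low erythroid sum.

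None of 17613 tested genes passed the test of arrival against control, a background of 0%. In limma on log2(RPKM + 1) with Benjamini-Hochberg adjustment, the smallest adjusted p was 0.824, and 719 genes had an unadjusted p under 0.05, where 881 would be expected if no gene differed. The median standard error of a log2 difference was 1.67. An exact permutation test of 2 libraries against 2 cannot give a two-sided p under 0.333. A second fit, limma's voom on reads recovered from the RPKM, called 247 genes higher at arrival, 1.4% of those tested, and 84 lower, 0.477%. In the authors' deposited table for this comparison, 157 genes are marked higher and 137 lower at an unadjusted p under 0.05, and every adjusted p in it is 1. What follows is therefore given as values in each library. A gene is called apart when the lowest library of one group exceeds the highest of the other by a stated gap on the log2(RPKM + 1) scale, so that no single library can place a gene there.

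By a gap of at least 2, 469 genes were higher in both arrival libraries, 2.66% of those tested, and 238 were lower, 1.35%. By a gap of at least 1 these counts were 810, or 4.6%, and 559, or 3.17%. Without any minimum gap, the groups did not overlap for 1828 genes higher at arrival, 10.4%, and 2087 lower, 11.8%. With quantile normalization the split at a gap of 2 was 353 higher and 306 lower. Among the 469 higher genes, 116 had no read in either control, and among the 238 lower genes, 48 had no read in either arrival library. Arrival 1 had 0 reads for 135 of the 238 lower genes and for 9412 of all tested genes, against 65 and 3834 in arrival 2. In these sorted pools, fewer cells expressing a gene and less RNA per cell cannot be told apart.

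**Figure D2:**
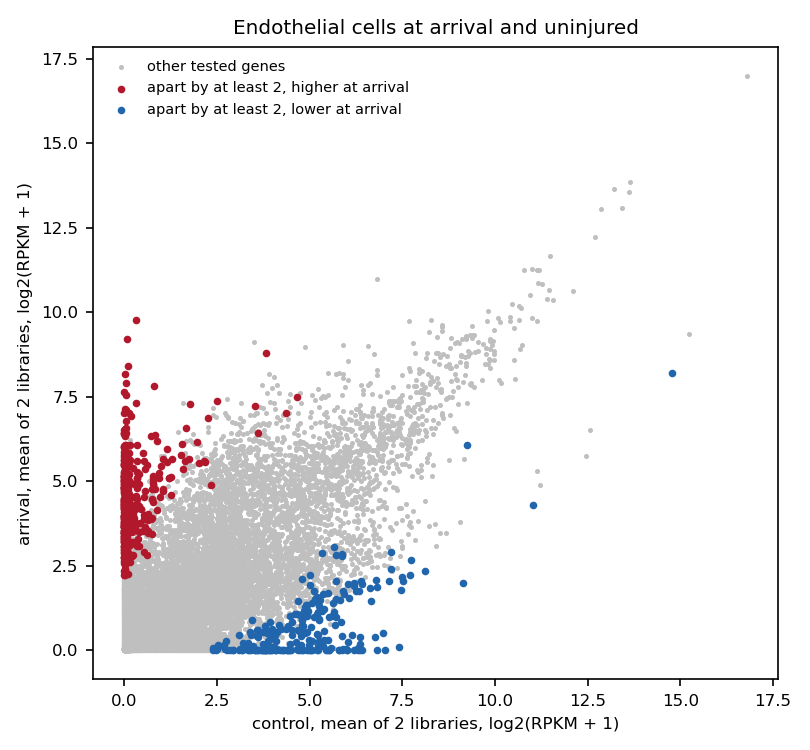
Mean log2(RPKM + 1) of the 2 arrival libraries (vertical axis) against that of the 2 control libraries (horizontal axis) for the 17613 tested genes. The 469 genes higher at arrival by a gap of at least 2 (red) lie mostly along the left edge, near 0 in controls, and the 238 lower genes (blue) mostly along the bottom edge.

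The 12 named genes with the widest upward gaps included a pair of hairy-related repressors, a chaperone and a pair of genes of neurons and photoreceptors. The hairy-related repressor her15.1, a Notch target, had 93.8 and 95.3 RPKM at arrival, against 0.0471 and 0.0288 RPKM in controls, a log2 difference of 6.52 ± 1.72 (SE). Its close relative her15.2 had 66.6 and 111 RPKM, against 0 and 0 RPKM, and reads of the pair may have been split between copies. Both genes were of similar level in the arrival libraries and at or near 0 in the controls. The part of neural RNA in these values was not tested. HES1, a related repressor that was added to the account after its values were seen, had 386 and 66.05 RPKM at arrival, against 0.0341 and 0.521 RPKM in controls. The cytosolic chaperone HSP90AA1 had 66.4 and 293 RPKM at arrival, against 0 and 0.0419 RPKM in controls, with a log2 difference of 7.11 ± 1.70 (SE). The BH3-only death gene bada had 93.9 and 75.04 RPKM, against 0 and 0 RPKM, and so was read only in the arrival libraries of this comparison.

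Some other genes among the 12 with the widest upward gap encode proteins of general cell maintenance. BLOC-1 subunit bloc1s4 had 132 and 65.5 RPKM at arrival, against 0 and 0.0232 RPKM in controls. Methionine sulfoxide reductase MSRB1 (ENSDARG00000045160), which repairs oxidised protein, had 62.2 and 70.8 RPKM, against 0.0542 and 0 RPKM. The proteasome regulator PSMF1 had 54.6 and 74.3 RPKM, against 0.0438 and 0 RPKM. Both arrival libraries were far above both controls for each of them. The same held for sertad2a, with 133 and 61.3 RPKM against 0 and 0 RPKM, for YIPF2, with 63.7 and 68.04 RPKM against 0 and 0.0186 RPKM, and for NICOL1, with 105 and 142 RPKM against 0.278 and 0 RPKM.

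The 2 remaining genes of those 12 are genes of neurons and photoreceptors. The neuronal factor NEUROD1, also made by photoreceptors, had 107 and 538 RPKM at arrival, against 0 and 0.0530 RPKM in controls. Recoverin (RCVRN, ENSDARG00000019902), the calcium sensor of photoreceptors, had 63.7 and 1273 RPKM, against 0.0255 and 0.0156 RPKM. Arrival 2 was the higher library for both, yet arrival 1 also held both. Of 40 tested neuron markers, 9 were higher at arrival by a gap of at least 1 and none was lower, and of 38 tested photoreceptor and lens markers, 5 were higher and none lower. The higher shares were 22.5% and 13.2%, beside 4.6% of all tested genes, of which 3.17% were lower. SNAP25 (ENSDARG00000020609), a synaptic fusion protein, had 46.7 and 57.6 RPKM, against 0.0566 and 0.0115 RPKM, and the neuronal RNA-binding protein ELAVL4 had 20.1 and 16.1 RPKM, against 0 and 0 RPKM. The whole neuron list of 49 matched genes summed to 420.04 and 3485 RPKM at arrival, against 975 and 259.6 RPKM in controls, so that control 1 exceeded arrival 1. Control 1 held vamp2 and CPLX4 at 249 and 294 RPKM, and arrival 1 held neither. Of the 469 higher genes, 11 are members of these 2 lists, and the part of neural RNA in that count was not tested. Without arrival 2 and control 2, 22.5% of neuron markers and 18.4% of photoreceptor and lens markers were higher by a gap of at least 1, beside 17.2% of all tested genes. The lower shares were then 25% and 13.2%, beside 19.3% of all tested genes.

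Immediate early and flow-responsive genes made up the pathway list with the largest share of members higher at arrival. Of 48 tested members, 9 were higher by a gap of at least 1, which is 18.8% beside 4.6% of all tested genes, 1 was lower and none passed limma's test. The list's median log2 difference was 0.78, beside 0 over all tested genes. Its summed RPKM overlapped, with 8075 and 2630 at arrival, against 1740 and 4366 in controls. Without arrival 2 and control 2, the libraries with photoreceptor and leukocyte RNA, 25 of 48 members were higher by that gap, which is 52.1% beside 17.2% of all tested genes. Without arrival 1 the share was 31.2%, beside 24.5% of all tested genes, and without arrival 2 it was 39.6%, beside 9.92%. It was 20.8% without control 1, beside 6.79%, and 35.4% without control 2, beside 11.2%. Leaving out a library can only keep or raise such counts.

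Among the AP-1 factors, FOSB had 127 and 18.6 RPKM at arrival, against 0.0220 and 0.0202 RPKM in controls, a log2 difference of 5.62 ± 2.15 (SE). JUN had 580.5 and 346 RPKM at arrival, against 1.69 and 73.7 RPKM in controls, and FOSL1 had 87.8 and 3.43 RPKM, against 0.0272 and 0 RPKM. FOSB and FOSL1 were near 0 in both controls, whereas JUN was clearly expressed in control 2. FOS itself overlapped, with 1197 and 223 RPKM at arrival, against 18.7 and 466 RPKM in controls. The stress factor ATF3 had 283 and 9.34 RPKM, against 0.0188 and 3.303 RPKM, and the growth regulator MYC (ENSDARG00000007241) had 17.7 and 98.6 RPKM, against 0.0288 and 0 RPKM. Arrival 1 was the higher arrival library for every one of these genes but MYC.

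Several genes that respond to the same signals or damp them were also higher in both arrival libraries. DUSP5, a nuclear phosphatase that switches off ERK, had 1209 and 259 RPKM at arrival, against 0.103 and 113 RPKM in controls. SOCS3 (ENSDARG00000026611), which limits cytokine signalling, had 59.5 and 37.7 RPKM, against 3.91 and 0.963 RPKM. The second copies of MYC and SOCS3 overlapped, with 1.26 and 5.93 RPKM and 447 and 87.1 RPKM at arrival, against 0.0281 and 88.6 RPKM and 136 and 396 RPKM in controls. The orphan receptor NR4A1 had 18.7 and 6.401 RPKM, against 0.176 and 0.118 RPKM, and the bZIP factor CEBPD had 47.05 and 6.67 RPKM, against 2.51 and 0.0135 RPKM. The exception was CEBPB, a bZIP factor abundant in myeloid cells, with 0.0760 and 0.0669 RPKM at arrival, against 47.2 and 605 RPKM in controls. It was near 0 in both arrival libraries and highest in control 2, the library with leukocyte RNA, and the part of that RNA was not tested. In the macrophage libraries at arrival and in controls it had 613 and 638 RPKM and 218 and 402 RPKM. The shear-stress factors klf2a and klf2b overlapped, with 368 and 15.5 RPKM against 15.7 and 169 RPKM, and 63.9 and 20.2 RPKM against 3.05 and 129 RPKM.

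Heat shock genes were split, with 5 of 44 tested members of the chaperone and unfolded protein list higher by a gap of at least 1 and 2 lower. These shares were 11.4% and 4.55%, beside 4.6% and 3.17% of all tested genes. The inducible chaperone hsp70l had 41.7 and 101 RPKM at arrival, against 0.0456 and 0.0279 RPKM in controls, and its co-chaperone dnajb1b had 16.3 and 98.8 RPKM, against 0 and 0.0151 RPKM. A further inducible copy, hsp70.3, had 1.79 and 426 RPKM, against 0.0222 and 0.0272 RPKM, so that arrival 1 was only slightly above controls. HERPUD1, an endoplasmic reticulum stress protein, had 44.1 and 30.6 RPKM, against 0 and 2.64 RPKM. Both lower members are copies of the collagen chaperone SERPINH1. Copy ENSDARG00000075954 had 0 and 1.78 RPKM at arrival, against 23.6 and 12.01 RPKM in controls, and copy ENSDARG00000019949 had 0.0130 and 0 RPKM, against 10.7 and 2.67 RPKM. The list's median difference was 0.04. Without arrival 1 the higher share was 20.5%, under the 24.5% of all tested genes. Without arrival 2 it was also 20.5%, beside 9.92%, and without either control alone it was above the share of all tested genes as well. Without arrival 2 and control 2, 17 of 44 members were higher, beside 3031 of 17613 tested genes, and 25% were lower, beside 19.3%.

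**Figure D3:**
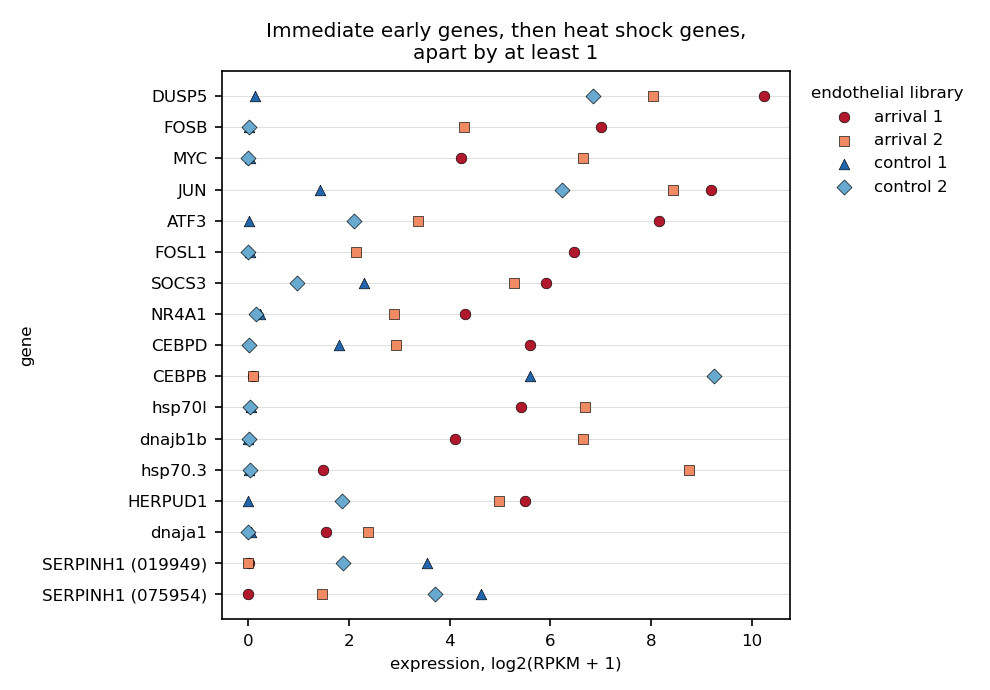
Expression on the log2(RPKM + 1) scale of the immediate early genes (DUSP5 to CEBPB) and heat shock genes (hsp70l to SERPINH1) apart by at least 1, with 1 point for each endothelial library. The arrival points (red and orange) lie right of the control points (blue) for all genes drawn except CEBPB and both SERPINH1 copies, which are named by the last 6 digits of their gene IDs.

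A gene that starts clotting was higher in both arrival libraries. Tissue factor (f3b), the cell-surface starter of coagulation, had 47.2 and 14.8 RPKM at arrival, against 0.0388 and 0 RPKM in controls, a log2 difference of 4.76 ± 1.69 (SE). It was at or near 0 in both controls and clearly present in both arrival libraries. Of 63 tested members of the matrix, protease and coagulation list, 2 were higher by a gap of at least 1, f3b among them, and 5 were lower. That was 3.17% higher, beside 4.6% of all tested genes, and 7.94% lower, beside 3.17%. The lower members encode matrix proteins, a protease inhibitor and both SERPINH1 copies. The laminin chain lamc1 had 0 and 0.00413 RPKM at arrival, against 4.41 and 8.45 RPKM in controls, perlecan (HSPG2) had 0 and 0.687 RPKM, against 6.91 and 2.95 RPKM, and the protease inhibitor SERPINE2 had 11.3 and 13.8 RPKM, against 48.3 and 71.1 RPKM. The list's median difference was -0.06.

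In the Wnt, VEGF and Notch lists, 1 or 2 members per direction were apart by a gap of at least 1. Of all tested genes 4.6% were higher and 3.17% lower by that gap. In the Wnt list, 2 Frizzled receptors were higher at arrival, 2 of 21 tested members or 9.52%, and 1 member was lower, 4.76%. FZD7 (ENSDARG00000060004) had 31.4 and 18.3 RPKM at arrival, against 0.0190 and 0 RPKM in controls, with a log2 difference of 4.63 ± 1.45 (SE), and FZD8 had 18.5 and 66.5 RPKM, against 0.0201 and 0 RPKM. The brain-vessel Wnt co-receptor ADGRA2 had 0 and 0.0378 RPKM at arrival, against 5.998 and 10.5 RPKM in controls, and was the only lower member. The second FZD7 copy overlapped, with 0.418 and 0.00891 RPKM at arrival against 0 and 6.45 RPKM in controls.

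Of 32 tested members of the VEGF, angiopoietin and apelin list, 2 were higher and 2 lower by a gap of at least 1, 6.25% in each direction beside 4.6% and 3.17% of all tested genes. The sphingosine phosphate receptor S1PR2 had 12.22 and 4.49 RPKM at arrival, against 0 and 0 RPKM in controls, and the guidance receptor ROBO1 had 30.2 and 4.300 RPKM, against 0 and 0 RPKM. The arterial ligand ephrin-B2 (efnb2a) had 0 and 0.0504 RPKM at arrival, against 24.9 and 8.36 RPKM in controls, and the repulsive guidance factor SEMA3A had 0.579 and 1.797 RPKM, against 45.5 and 28.05 RPKM. ANGPT2, a Tie2 ligand of remodelling vessels, was lower by a gap under 1, with 91.1 and 96.8 RPKM at arrival against 708 and 158 RPKM in controls. In the Notch list, 1 of 24 tested members, her15.1, was higher and 1, NOTCH1, was lower, 4.17% each, with 0.0631 and 1.83 RPKM at arrival against 44.7 and 6.88 RPKM in controls. The Notch ligand of sprout tips, dll4, overlapped with 99.98 and 21.3 RPKM against 82.4 and 133 RPKM.

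The BMP and TGF beta list held 4 lower and 2 higher members of 31 tested, and its median difference was 0. These shares were 12.9% and 6.45%, beside 3.17% and 4.6% of all tested genes. Without arrival 2 and control 2, 29% were lower, beside 19.3% of all tested genes, and 29% were higher, beside 17.2%. The lower members are targets and transducers. ID1, a direct BMP target, had 15.4 and 157 RPKM at arrival, against 442 and 739 RPKM in controls. The inhibitory SMAD6, which BMP signals induce, is listed in 2 copies. Copy ENSDARG00000031763 had 0.164 and 8.83 RPKM at arrival, against 37.7 and 33.05 RPKM in controls, and copy ENSDARG00000053209 had 0 and 5.24 RPKM, against 37.9 and 17.5 RPKM. SMAD3 (ENSDARG00000010207), a TGF beta transducer, had 0 and 1.22 RPKM, against 19.9 and 10.3 RPKM. Arrival 1 was the lower arrival library for all of these. The higher members included the type II receptor BMPR2 (ENSDARG00000020057), with 20.3 and 14.04 RPKM at arrival against 0.0125 and 0 RPKM in controls. The second copies did not follow, with 126 and 8.35 RPKM against 5.02 and 38.5 RPKM for SMAD3, and 17.1 and 13.9 RPKM against 26.3 and 34.7 RPKM for BMPR2.

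Among endothelial markers, 3 of 31 tested genes were lower by a gap of at least 1 and 1 was higher, with a median difference of -0.40. That was 9.68% lower, beside 3.17% of all tested genes, and 3.23% higher, beside 4.6%. Without arrival 2 and control 2, 35.5% were higher, beside 17.2% of all tested genes, and 29% were lower, beside 19.3%. The decoy VEGF receptor flt1 had 12.8 and 22.96 RPKM at arrival, against 101 and 86.04 RPKM in controls. The sialomucin cd34 had 0 and 22.2 RPKM, against 87.2 and 59.2 RPKM, and the transcription factor ETS1 had 20.03 and 35.03 RPKM, against 136 and 126 RPKM. Its relative ERG went the other way, with 85.2 and 12.6 RPKM at arrival against 0.0499 and 0.519 RPKM in controls. Other defining genes overlapped. SOX7 had 353 and 75.02 RPKM at arrival, against 267 and 251 RPKM in controls, sox18 had 215 and 2.49 RPKM, against 5.62 and 146 RPKM, and FLI1 had 189.7 and 18.4 RPKM, against 141 and 77.9 RPKM. The angiopoietin receptors TIE1 and tek had 45.02 and 3.97 RPKM and 29.2 and 2.88 RPKM at arrival, against 10.6 and 75.5 RPKM and 0.324 and 19.04 RPKM in controls.

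Most barrier genes overlapped or lay close, with 3 of 43 tested junction and transport genes higher by a gap of at least 1 and none lower. That was 6.98% higher, beside 4.6% of all tested genes, and 0% lower, beside 3.17%. The lipid transporter MFSD2A, which carries omega-3 fatty acids across brain endothelium, had 30.9 and 27.1 RPKM at arrival, against 0.0790 and 0.00966 RPKM in controls. Its log2 difference was 4.84 ± 1.82 (SE), and the arrival libraries agreed closely. Macrophages also held MFSD2A, at 63.2 and 78.2 RPKM at arrival, against 0 and 28.3 RPKM in macrophage controls. The cadherin-binding catenin CTNND1 had 37.1 and 22.3 RPKM at arrival, against 4.695 and 3.52 RPKM in controls, and N-cadherin (CDH2), also a neural gene, had 30.3 and 19.1 RPKM, against 8.06 and 0.0192 RPKM. The tight junction protein CLDN5 overlapped in both copies. Copy ENSDARG00000014059 had 294 and 133 RPKM at arrival, against 322 and 204 RPKM in controls, and copy ENSDARG00000043716 had 128 and 74.1 RPKM, against 73.3 and 265 RPKM.

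**Figure D4:**
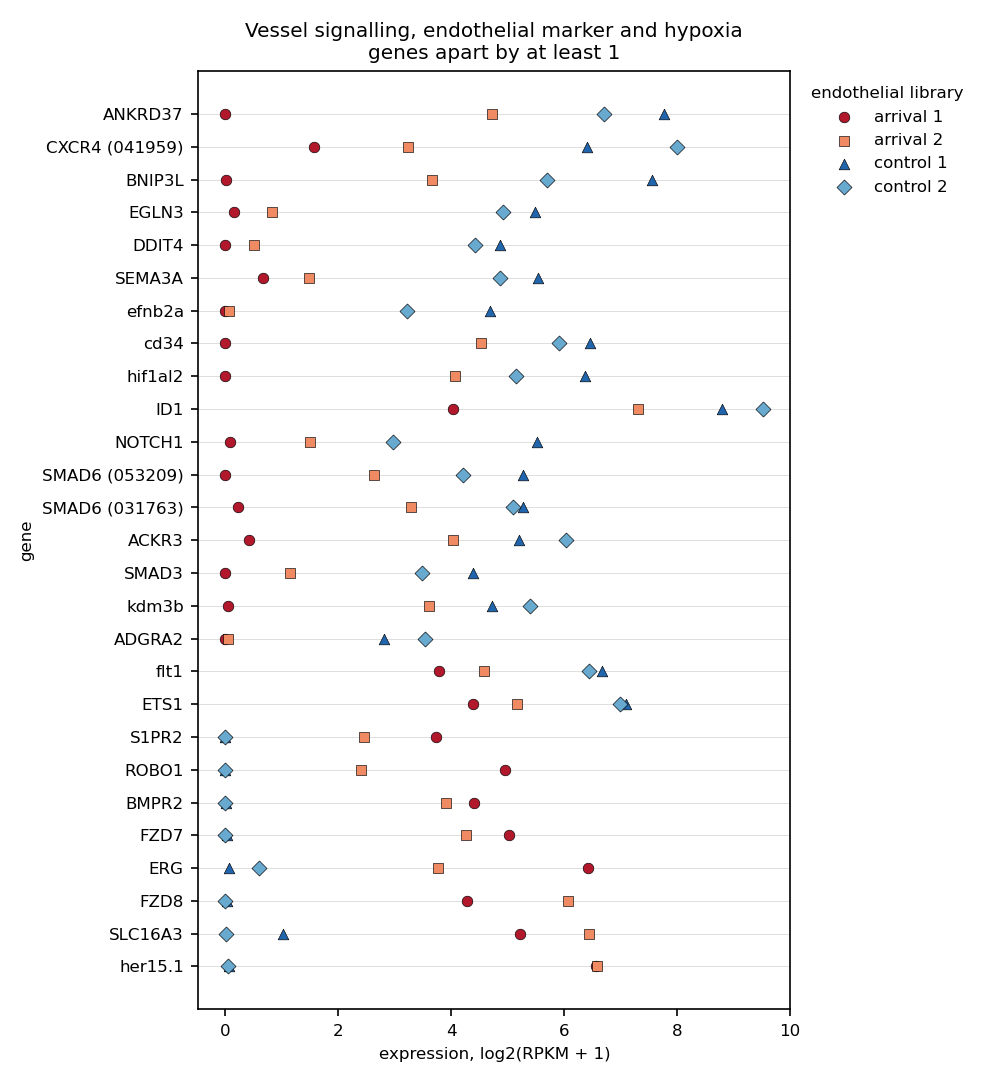
Expression on the log2(RPKM + 1) scale of endothelial marker, VEGF, Notch, BMP, Wnt, chemokine and hypoxia genes apart by at least 1, with 1 point for each endothelial library, ordered by the difference. From ANKRD37 down to ETS1 both arrival points (red and orange) lie left of both control points (blue), and from S1PR2 down to her15.1 they lie right of them.

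Several hypoxia-inducible genes were lower in both arrival libraries. Of 55 tested members of the glycolysis and hypoxia list, 6 were lower by a gap of at least 1. That was 10.9%, beside 3.17% of all tested genes. Another 1 was higher, 1.82% beside 4.6%, and none passed limma's test. The list's summed RPKM overlapped, with 1153 and 6036 at arrival, against 2267 and 3783 in controls. The oxygen sensor EGLN3 had 0.116 and 0.777 RPKM at arrival, against 43.8 and 29.1 RPKM in controls, and the mTOR inhibitor DDIT4 had 0 and 0.425 RPKM, against 28.00 and 20.5 RPKM. ANKRD37, a target of hypoxia-inducible factor, had 0 and 25.3 RPKM, against 217 and 103 RPKM. The mitophagy receptor BNIP3L (ENSDARG00000028067) had 0.0145 and 11.7 RPKM, against 187 and 50.9 RPKM. All 4 were 0 or near 0 in arrival 1, and arrival 2 held ANKRD37 and BNIP3L at intermediate levels. The members hif1al2, with 0 and 15.8 RPKM against 81.6 and 34.6 RPKM, and kdm3b, with 0.0375 and 11.2 RPKM against 25.6 and 41.1 RPKM, had the same order. The higher member was the lactate exporter SLC16A3, with 36.4 and 85.9 RPKM at arrival against 1.02 and 0.0103 RPKM in controls. The list's median difference was -0.02, beside 0 over all tested genes. The lower share was 18.2% without arrival 1, beside 4.78% of all tested genes, 21.8% without arrival 2, beside 9.67%, and 25.5% without arrival 2 and control 2, beside 19.3%. It was close to the share of all tested genes without either control alone, at 20% beside 18.3% without control 1 and 12.7% without control 2, where 1961 of 17613 tested genes were lower.

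A pair of chemokine receptors was lower in both arrival libraries. One CXCR4 copy, ENSDARG00000041959, had 1.97 and 8.37 RPKM at arrival, against 83.97 and 255 RPKM in controls, and ACKR3 (ENSDARG00000058179), the scavenger receptor for the same ligand, had 0.334 and 15.3 RPKM, against 35.99 and 64.6 RPKM. This CXCR4 copy was highest in control 2, the library with leukocyte RNA, and had 0.335 to 664 RPKM in macrophage libraries. The part of leukocyte RNA in its values was not tested. The other CXCR4 copy, ENSDARG00000057633, had 96.9 and 24.2 RPKM, against 1053 and 178 RPKM, in the same order but with a gap under 1. The first 2 were the only members apart by at least 1 among 19 tested genes of the leukocyte adhesion and chemokine list, whose median difference was -0.87. They made up 10.5% of that list, beside 3.17% of all tested genes lower by that gap. Of 33 tested inflammation genes only relb, an NF-kappaB subunit, was apart by that gap, which is 3.03% higher beside 4.6% of all tested genes. It had 15.5 and 1.22 RPKM at arrival, against 0.0116 and 0.0354 RPKM in controls.

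Genes of cell death and survival were among those lower at arrival. Of 48 tested p53 and apoptosis genes, 7 were lower by a gap of at least 1, which is 14.6% beside 3.17% of all tested genes, and 2 were higher, which is 4.17% beside 4.6%. Without arrival 2 and control 2 the lower share was 18.8%, near the 19.3% of all tested genes. The higher share was then 31.2%, beside 17.2% of all tested genes. The pore-forming gasdermin GSDME had 0 and 0 RPKM at arrival, against 64.03 and 104 RPKM in controls, and did not exceed 16.5 RPKM in any macrophage library. The anti-apoptotic genes mcl1a and mcl1b had 129 and 195 RPKM and 86.1 and 79.5 RPKM at arrival, against 637 and 569 RPKM and 224 and 219 RPKM in controls. The mitochondrial death factor diablob had 0 and 4.11 RPKM, against 25.1 and 60.7 RPKM, so lower members included genes for and against cell death. Of 50 tested cycle genes, the proliferation marker mki67 was lower, with 11.3 and 0.632 RPKM against 48.99 and 45.03 RPKM, as was the cycle inhibitor cdkn1ca, with 1.37 and 23.1 RPKM against 203 and 102 RPKM. Of the tested cycle genes 4% were lower and 4% higher, beside 3.17% and 4.6% of all tested genes. The other members apart were 2 copies of the nucleotide reductase subunit RRM2, both higher. Copy ENSDARG00000020711 had 12.01 and 13.97 RPKM at arrival, against 0.0219 and 0.0937 RPKM in controls, and copy ENSDARG00000078069 had 4.697 and 3.56 RPKM, against 0 and 0 RPKM.

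The widest gaps downward were led by CYP1B1, a cytochrome P450 that oxidises steroids and retinoids. It had 0 RPKM in both arrival libraries, against 128 and 97.1 RPKM in controls, and at most 0.188 RPKM in any macrophage library. Its log2 difference was -6.81 ± 1.36 (SE), with the smallest unadjusted limma p of all genes, 9.29e-05, and an adjusted p of 0.824 in limma and of 5.31e-08 in voom. The SMN complex member GEMIN7 had 0 and 0 RPKM, against 219 and 77.6 RPKM, and the adaptor NCK1 (ENSDARG00000074262), which links receptors to actin, had 0 and 0.0438 RPKM, against 84.6 and 44.97 RPKM. The transporter SLCO3A1 had 0 and 0.0411 RPKM, against 64.9 and 52.2 RPKM, and inka1b, related to inhibitors of PAK4, had 0.0696 and 0.0230 RPKM, against 64.05 and 94.7 RPKM. For each of these both controls were far above both arrival libraries.

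Some of the 12 genes with the widest downward gap are also abundant in macrophages. The lysosomal thiol reductase ifi30a had 0 and 0 RPKM at arrival, against 87.8 and 68.7 RPKM in controls, and the G protein regulator rgs5b, a mural cell marker in mouse, had 0 and 0 RPKM, against 72.5 and 40.5 RPKM. Macrophage libraries at arrival and in controls had 179 and 55.1 RPKM and 595 and 3.42 RPKM of ifi30a, and 164 and 575 RPKM and 63.8 and 27.6 RPKM of rgs5b. The part of leukocyte RNA in these values was not tested. The remaining genes were ponzr1, with 0.294 and 0 RPKM against 59.1 and 112 RPKM, rell2, with 0 and 0.708 RPKM against 133 and 87.8 RPKM, and si:ch211-214p16.2, with 0 and 0 RPKM against 53.4 and 132 RPKM.

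Red cell RNA was lower as well, in step with the erythroid sums given above. Of 22 tested erythroid genes, 6 were lower by a gap of at least 1, which is 27.3% beside 3.17% of all tested genes, and 1 was higher, 4.55% beside 4.6%. The alpha globins hbae1.1, hbae1.2 and hbae1.3 had 0.243 and 316 RPKM, 0.983 and 1460.5 RPKM and 0.138 and 12.7 RPKM at arrival, against 1469.8 and 2965 RPKM, 5595 and 5577 RPKM and 1059 and 303 RPKM in controls. Heme and iron genes showed no common direction, with 3 of 36 tested members higher and 2 lower. These shares were 8.33% and 5.56%, beside 4.6% and 3.17% of all tested genes. The heme exporter FLVCR1 had 27.97 and 13.7 RPKM at arrival, against 0 and 0 RPKM in controls, and its relative FLVCR2 had 0 and 0.0304 RPKM, against 1.78 and 17.1 RPKM. FLVCR2 was highest in control 2, the library with leukocyte RNA, and had 6.05 to 63.96 RPKM in macrophage libraries. The part of leukocyte RNA in its values was not tested. The heme-degrading enzyme HMOX1, abundant in macrophages, had 0.0544 and 13.5 RPKM, against 6.16 and 7.38 RPKM, and overlapped.

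Few genes of cell movement and adhesion were apart. Of 73 tested actin genes, 3 were higher by a gap of at least 1 and 2 lower, and of 50 adhesion genes 3 were higher and none lower. The actin shares were 4.11% and 2.74%, and the adhesion shares 6% and 0%, beside 4.6% and 3.17% of all tested genes. The small GTPase rac1a, which drives lamellipodia, had 30.6 and 48.9 RPKM at arrival, against 13.4 and 25.98 RPKM in controls, a gap under 1, while RAC1 (ENSDARG00000087954) had 0.175 and 0.795 RPKM, against 0.371 and 2.08 RPKM. RAC3 (ENSDARG00000020795) had 20.6 and 5.82 RPKM, against 0.0866 and 0.00756 RPKM, and the Rac activator TIAM1 (ENSDARG00000025920) had 13.8 and 6.29 RPKM, against 0.0336 and 0 RPKM. The light chain myl6 had 18.1 and 35.5 RPKM, against 0 and 1.165 RPKM, and the focal adhesion protein ZYX had 69.2 and 2.25 RPKM, against 0.215 and 0 RPKM. The higher genes of the actin list included ARPC5L, with 49.6 and 4.86 RPKM at arrival against 0.477 and 0.0225 RPKM in controls. They also included MARCKS, with 21.8 and 4.04 RPKM against 0.533 and 0.507 RPKM. The lower actin genes were WAS and ARPC3. The leukocyte actin regulator WAS had 0 and 0.132 RPKM at arrival, against 8.62 and 144 RPKM in controls, and was highest in control 2. The Arp2/3 complex subunit ARPC3 had 51.03 and 82.6 RPKM, against 177 and 224 RPKM. The kinase pak2b, which is not on the actin or adhesion list, had 0 and 12.05 RPKM at arrival, against 119 and 31.7 RPKM in controls. No mitochondrially encoded gene of 13 was apart by that gap.

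**Figure D5:**
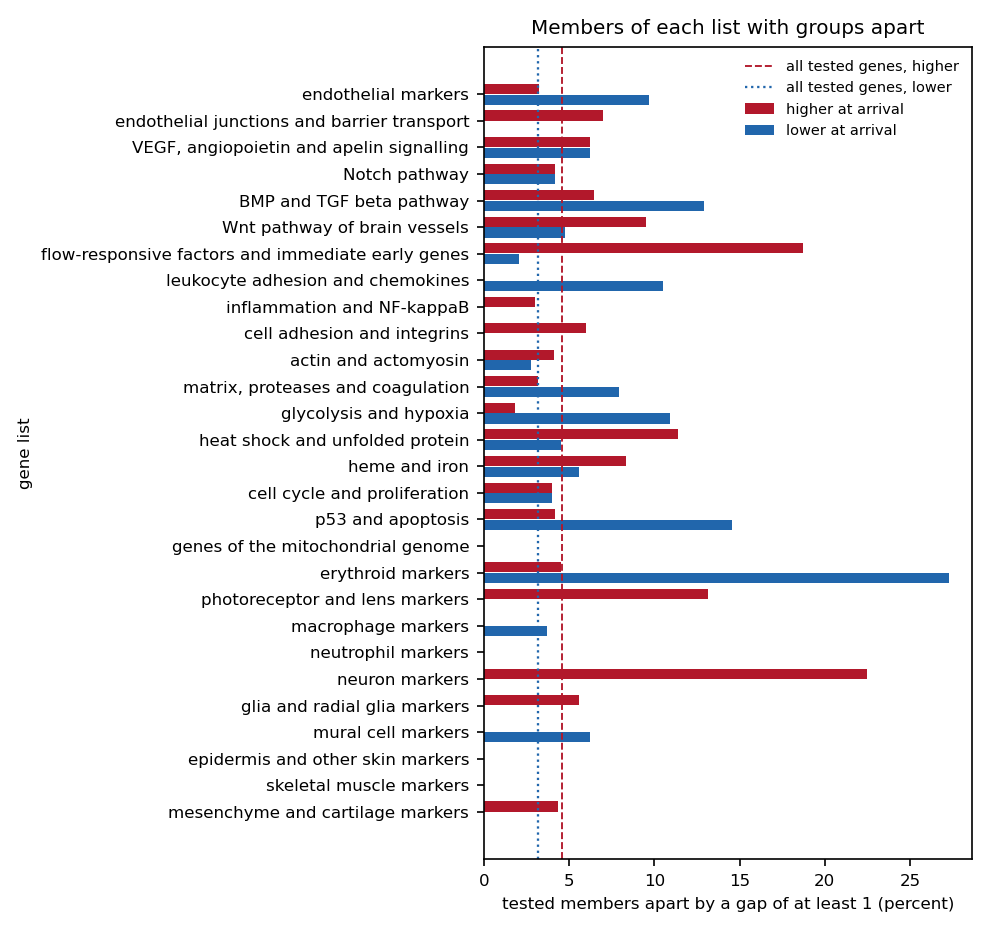
Percent of tested members of each gene list drawn that are apart by a gap of at least 1, higher at arrival (red) and lower at arrival (blue). The dashed and dotted lines give the same shares over all 17613 tested genes, 4.6% and 3.17%. Immediate early genes and neuron markers stand farthest above the upward line, and erythroid, apoptosis, BMP and hypoxia lists above the downward line. The leukocyte adhesion and chemokine, endothelial marker and matrix lists are among others above the downward line.

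Macrophages of the same stages, which share no library with this comparison, gave a second view of the arrival stage. By a gap of at least 2, 461 genes were higher in macrophages at arrival than in uninjured controls, 2.62%, and 253 were lower, 1.44%. Higher in both cell types were 20 genes, which is 4.26% of the endothelial list and 4.34% of the macrophage list. Lower in both were 5 genes, 2.1% of the endothelial list and 1.98% of the macrophage list. In opposite directions, 11 of the 238 genes lower in endothelial cells were higher in macrophages at arrival, as were 2.62% of all tested genes. Of the 469 genes higher in endothelial cells, 7 were lower in macrophages, as were 1.44% of all tested genes. The 20 shared higher genes included tissue factor. Macrophages had 88.6 and 291 RPKM of f3b at arrival, against 0 and 0.0602 RPKM in controls. HES1 had 196 and 11.8 RPKM in arrival macrophages, against 0 and 0 RPKM, and bada had 40.3 and 89.6 RPKM, against 0.472 and 0 RPKM. HSP90AA1 had 38.2 and 15.9 RPKM in arrival macrophages, against 0.0693 and 0.505 RPKM. In limma's interaction contrast, none of 17613 genes passed for a difference between endothelial cells and macrophages in the change at arrival. The smallest adjusted p was 0.949, 629 genes had an unadjusted p under 0.05, and voom called 37.

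A comparison of endothelial cells at macrophage traction would use the same control libraries as that of arrival, so the traction values are given without a test. Endothelial traction libraries had 0.0311 and 0 RPKM of f3b and 0 and 0 RPKM of bada, near or at the control values given above. MFSD2A had 0 and 0.0106 RPKM and FOSB 0.00884 and 0.252 RPKM at traction. Other genes higher at arrival were above both controls in both traction libraries. HSP90AA1 had 229 and 37.6 RPKM, ATF3 29.4 and 75.3 RPKM, NICOL1 41.8 and 50.4 RPKM and CTNND1 10.6 and 104.9 RPKM. The photoreceptor and lens list summed to 53092 and 25.02 RPKM in the traction libraries. The endothelial marker list summed to 307 and 3045 RPKM in them. CYP1B1 had 0.0248 and 0.0208 RPKM and rgs5b 0.0408 and 0.0686 RPKM at traction, close to their arrival values. DDIT4 had 2.31 and 37.2 RPKM and ANKRD37 23.9 and 51.1 RPKM at traction, and the 2 traction libraries differed widely for several genes, such as SEMA3A with 0.872 and 84.1 RPKM.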

How the data were processed

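The 12 Smart-seq2 libraries formed 6 groups of 2, by labelled cell type and lesion stage, and 4 enter this comparison. The submitters' processing notes name the tools DESeq 1.16.0, HTSeq 0.6.0, TopHat2 2.0.12 and Bowtie2 2.2.3. No coordinates or sequences are printed, as the build and annotation are not given in the sources used here. The authors deposited RPKM for 33737 Ensembl gene IDs per library, per the file headers, scaled to reads in genes and not between libraries, so a gene that takes many reads lowers all others. The authors deposited, per stage pair, group means as a normalized signal, with their p-values and adjusted p-values. Of the IDs, 22199 had a name, as did 14038 of the 17613 tested.

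Reads were recovered from the RPKM and the group means, and 100% of values were whole within 0.05 reads. Genes with at least 10 reads at median depth in 2 libraries and 15 reads in all were tested. Models on log2(RPKM + 1) were fitted to all 12 libraries with limma 3.58.1 in R 4.3.3, with 1 mean per group, a mean-variance trend, robust variances and a threshold of 0.05 on two-sided adjusted p. The pseudocount of 1 understates differences of low genes. The fits were also run on simulated read numbers with known changes. Those did not model RNA of other cell types or genes missed in single libraries, so they do not show how the fits perform here. Named genes were the 12 with the widest gap in each direction, in each of 19 pathway lists the 2 members per direction with the widest gap of at least 1, a fixed set of endothelial, leukocyte and Rac genes, and the top markers of 10 lists of other cell types. HES1, FOS, ANGPT2, dll4 and further members apart by at least 1 were named after their values were seen. A few genes and 1 list that these rules name are not reported here. Members and lists were chosen with earlier results of these data known. The comparison used unpaired libraries. Alternatives were another pseudocount, no filter, quantile normalization, rescaling without the top gene, fewer libraries, a replicate block and voom.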

Additional observations from a re-analysis of the deposited data

Results flagged for a closer look

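For 11 of the genes followed, both endothelial arrival libraries lay on one side of the endothelial controls by a gap of at least 1, and both macrophage arrival libraries lay on the opposite side of the macrophage controls by at least that gap. Many of the genes followed were named for their gap in these endothelial libraries. The share of all tested genes with such opposite gaps was not counted, so the 11 cannot be set beside a background. The values below are the endothelial change at arrival minus the macrophage change, on the log2(RPKM + 1) scale with its SE, from limma's interaction contrast. None passed, with an adjusted p of 0.949 for each.

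Of the genes lower in endothelial arrival libraries, 3 belong to the hypoxia and chemokine lists. For ANKRD37 the value was -10.57 ± 2.54, with 66.1 and 39.3 RPKM in macrophages at arrival, against 0 and 0 RPKM in macrophage controls. For DDIT4 it was -8.85 ± 2.58, with 38.3 and 38.2 RPKM against 1.87 and 0.105 RPKM, and for ACKR3 (ENSDARG00000058179) it was -7.23 ± 3.098, with 3.92 and 39.98 RPKM against 0 and 0 RPKM. Genes of survival and the cell cycle gave 4 more. The values were -9.71 ± 2.398 for cdkn1ca, -8.14 ± 3.31 for bcl2l10, -5.78 ± 2.39 for CCNG2 and -3.63 ± 1.73 for mcl1b. GEMIN7 gave -12.07 ± 2.69 and rgs5b gave -8.63 ± 2.29.

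The other 2 were higher in endothelial arrival libraries. For SLC16A3 the value was 8.94 ± 3.09, with 0.0816 and 0.635 RPKM in macrophages at arrival, against 27.3 and 8.52 RPKM in macrophage controls. For the adhesion molecule ALCAM it was 6.90 ± 2.44, with 3.43 and 18.7 RPKM in endothelial arrival libraries, against 0.0491 and 0 RPKM in endothelial controls. With 2 libraries a group, no library could be set apart from the others of its group.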

How the results depend on the processing

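The count of 0 genes called by limma at arrival, and of 0 in the contrast with macrophages, was also 0 under the other limma settings tried, and voom called 331 and 37. The labels share replicate numbers across groups. The only pair of replicate 1 libraries, endothelial arrival and control, had deviations correlated at 0.0595, so the numbers were not taken as pairing, and with the replicate block both counts were 0. With only the 6 endothelial libraries the contrast with macrophages could not be given.

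By the gap rule, 469 genes were higher and 238 lower. A pseudocount of 0.1 RPKM gave 802 and 416, a gap of 1 gave 810 and 559, and a gap of 3 gave 266 and 104. Leave-outs chosen after seeing the data, of each library or of arrival 2 and control 2 together, can only raise these counts, which ran from 737 to 2926 higher and from 376 to 2428 lower. Without arrival 2 and control 2 they were 2329 and 2428.

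Of 125 genes followed, 40 passed in voom, beside 331 of all 17613 tested genes. Many of the 125 were chosen for their gap in these same libraries, so the 40 are no separate evidence. Followed genes whose direction turned had overlapping groups. With libraries left out, log2 differences, arrival minus control, ran from -0.944 to 0.194 and from -1.434 to 0.799 for the CLDN5 copies, and from -8.042 to 0.899 for CORO1A. They ran from -0.711 to 1.123 for ENSDARG00000080337, -2.445 to 0.851 for FLI1, -2.877 to 0.904 for HMOX1, -1.083 to 0.083 for RAC1 and -1.774 to 0.444 for SOX7. They ran from -2.585 to 1.985 for TIE1, -0.253 to 2.321 for cdh5, -1.839 to 1.171 for kdrl, -1.69 to 4.466 for klf2a and -1.811 to 4.002 for klf2b. They ran from -3.164 to 5.031 for sox18 and -0.888 to 4.511 for tek. Quantile normalization gave 0.133 for CLDN5 (ENSDARG00000014059), and voom gave -0.048 for klf2a. The causes were not tested. Each library came from about 80 cells, and arrival 1 had 0 reads for 9412 tested genes, so that a gene missed in a library cannot be told from one not expressed.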

Other observations

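Genes of further cell types were present in all or some libraries. The radial glial fatty acid binder FABP7 had 1099 and 3774 RPKM in arrival libraries, against 1574 and 6.95 RPKM in controls, and the keratins krt18a.1 and krt8 had 263 and 213 RPKM and 133 and 69.9 RPKM at arrival, against 419 and 219.7 RPKM and 153 and 189 RPKM in controls. The mural and endothelial genes TAGLN and foxf2b had 196 and 33.4 RPKM and 98.7 and 47.05 RPKM at arrival, against 164 and 87.1 RPKM and 79.98 and 169 RPKM in controls. The synaptic gene vamp2 had 0 and 642 RPKM at arrival, against 249 and 0.0715 RPKM in controls, so that it was abundant in arrival 2 and control 1 and at or near 0 in the other libraries of this comparison. Collagen col1a1a had 0.364 and 7.17 RPKM, against 55.1 and 0 RPKM, and muscle tropomyosin tpma had 0 and 51.7 RPKM, against 0 and 0 RPKM. Of the neutrophil, skin and skeletal muscle lists, with 13, 25 and 14 tested genes, none was apart by a gap of at least 1. Of all tested genes 4.6% were higher and 3.17% lower by that gap, so lists this small would hold few such genes. SOX9 (ENSDARG00000003293), named after its values were seen, was the gene apart in the glial and the mesenchyme lists. It had 8.76 and 19.2 RPKM at arrival against 0 and 0 RPKM in controls, and rgs5b was the gene apart in the mural list. That was 5.56% of glial and 4.35% of mesenchyme genes higher and 6.25% of mural genes lower.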
